A study of Mus musculus with 6 samples.

Results

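The genes described here encode the machinery that docks, primes and fuses transmitter-filled vesicles at nerve terminals. They were chosen by gene symbol, taking synaptotagmins, syntaxins and their binding proteins, SNAP and VAMP proteins, complexins, Rab3 proteins, synapsins, SV2 proteins, synaptophysins, synaptogyrins, RIM and Munc13 proteins, NSF, its SNAP adaptors and rabphilins. Of the 10080 probes on the array, 9066 had 1 gene symbol, 65 probes for 62 genes matched, and 26 of these 65 gave a ratio on all 6 arrays and were tested. The symbol rule also took in 9 probes of other proteins, namely 8 for Rab30 to Rab38, which are Rab GTPases other than Rab3, and 1 for Snap91, a clathrin assembly protein of nerve terminals. Members were not chosen by their values.

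The study measured RNA of the hypothalamus of male DBA/1 mice, 8 weeks old, on in-house printed 2-colour oligonucleotide arrays. Each array set a collagen sample against a control sample, and there were 3 biological replicates with 2 arrays each, 1 with collagen in Cy5 and 1 with collagen in Cy3. Collagen mice received 100 ul of type II collagen and 100 ul of Complete Freund's adjuvant by intradermal injection, control mice 200 ul of the adjuvant, and both groups lipopolysaccharide (LPS) at day 24. When the mice were killed is not clear from the labels. The doses of adjuvant differed, so collagen and adjuvant dose cannot be told apart, and controls were immune-stimulated mice too. Whether a replicate came from 1 mouse or from pooled mice is not stated, and the spread behind each p-value may be technical. The scanner files call their channels A and B without naming the dyes. Channel A was read as Cy3, the first dye of each label, and every direction would turn if it were Cy5.

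In a terminal, a SNARE protein of the vesicle (a VAMP) and SNARE proteins of the plasma membrane (a syntaxin and a SNAP25 protein) zip together and pull the membranes into fusion. Complexins and Munc18 proteins hold and guide the SNAREs, and synaptotagmins on the vesicle sense the calcium that triggers fusion. Rab3, RIM and rabphilin bring vesicles to the release site, and NSF with its SNAP adaptors takes the spent SNARE complexes apart. Hypothalamic neurons use this machinery for fast transmitters and for the release of peptides such as oxytocin.

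Of 11 hypothalamic marker genes on the array, Oxt, Gal, Gnrh1 and Pmch had a ratio on all 6 arrays, and the other 7 on at least 1. Of 5 markers of thalamus and cortex 4 were measured on all arrays, of 3 oligodendrocyte markers 2, of 4 astrocyte markers 2, of 6 microglial and macrophage markers 1, and of 4 pituitary markers 1. Of 9 general neuronal markers 3 were measured on all arrays, and the endothelial and the blood marker on some arrays only. In whole tissue, fewer cells of a type and less RNA per cell cannot be told apart. In replicate 1 the array carrying collagen in Cy3 stood apart, its log2 ratios having an SD of 1.66, where the other arrays had 0.38 to 0.67. Arrays are named below by the dye of their collagen sample, so this is the Cy3 array of replicate 1. Spot signals in channel B agreed less between arrays in the upper part of the slide. Over the probes with channel B signal on all arrays, Spearman's rho between pairs of arrays was 0.21 to 0.97 (median 0.40) in block rows 1 to 7 and 0.47 to 0.89 (median 0.70) in block rows 8 to 12. Of the 26 tested members, 16 lay in the upper rows and 10 in the lower ones. Those in the upper rows were all 5 tested SNAREs, Stx1a among them, and Syn1, Syn2, Syn3, Snap91, Stxbp5, Syt11, Syt13, Sv2a, Syngr3, Sypl2 and Rab32. A probe is named by its position on the slide, so values printed under gene names of the upper rows carry a doubt about those names. Whether the names or the signals were at fault there was not tested. Only the pair of arrays of replicate 2 agreed more in the upper rows, at 0.97 against 0.84 in the lower ones. Across the 26 members the arrays of replicate 2 agreed at a rho of 0.92, those of replicate 3 at 0.69 and those of replicate 1 at 0.47. Between replicates it ranged from -0.13 to 0.82. These correlations run across probes, which share the slide and are not independent replicates.

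Member probes had a ratio on all 6 arrays in 26 of 65 cases (40%), against 23% of all 10080 probes. A ratio on no array was found for 3 members (4.62%), against 4.39%. Channel A had a signal on all arrays for 61 of 65 members and 89.8% of all probes, and channel B for 26 members and 23.2% of all probes. The share differed by role, from 9 of 11 probes for vesicle proteins to 0 of 6 for Rab3 and its effectors. It was 5 of 16 for SNAREs, 5 of 10 for SNARE regulators, 4 of 13 for synaptotagmins and their relatives, and 3 of 9 for the other proteins. The members with no ratio were Cplx2, a complexin, Syt6 and Rims2, a RIM scaffold of the release site. The difference from other probes was not tested.

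**Figure D1:**
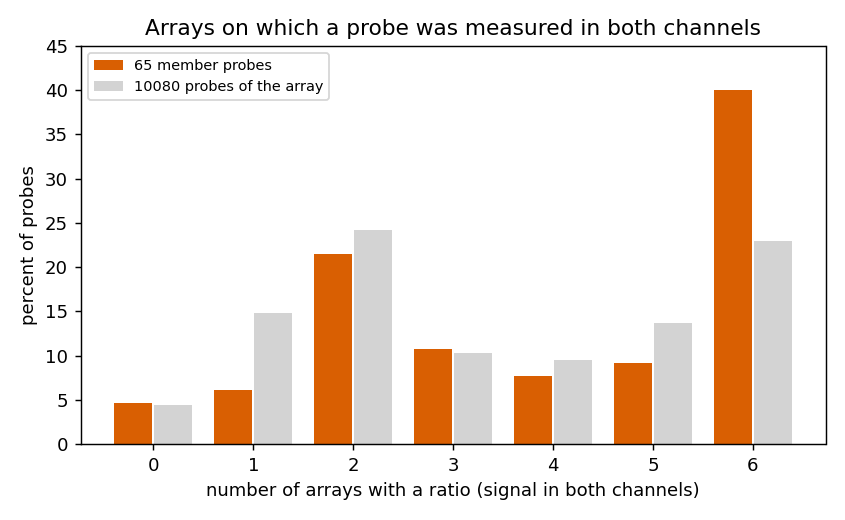
Percent of probes (vertical axis) by the number of arrays with a ratio (horizontal axis), for the 65 member probes and for all 10080 probes. At 6 arrays the members stand at 40% and all probes at 23%, while at 1 array the members stand at 6.15% and all probes at 14.8%.

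Some core genes of fast release were among those not measured throughout. Snap25, the neuronal plasma membrane SNARE, had channel B signal on the arrays of replicate 3 alone. Its background-subtracted signal per pixel in the control sample was 7140 and 21997 on the arrays of replicate 3, and in the collagen sample 9132 and 16582. On the arrays of replicates 1 and 2 a signal was read in channel A alone, at 1313 and 720 for control and 5855 and 539 for collagen. Replicate 3 thus read higher than replicates 1 and 2 on each array, but these signals were not normalized between arrays. Channel A gave a signal on all arrays for 89.8% of all probes. On the Cy5 array of replicate 1, Rims2 and Syt6, which had no ratio on any array, read 1420 and 1177 in channel A, beside 1313 for Snap25. On the Cy3 array of replicate 1 they read 959 and 3364, beside 5855 for Snap25. In replicate 2 Rims2 read 863 and 526 and Syt6 1057 and 961, beside 720 and 539 for Snap25. Snap25 levels therefore cannot be compared between replicates from these readings. The log2 ratio of collagen over control was -0.78 and -0.50 on the 2 arrays of replicate 3. Nsf, the ATPase that takes SNARE complexes apart, was likewise brightest on the Cy3 array of replicate 3, at 13113 for collagen and 11555 for control. On the other arrays Nsf read 139 to 4294. Its log2 ratio was 0.17 on the 1 array of replicate 2 that measured it, and 0.03 and 0.18 in replicate 3. Syp, in contrast, was read on all 6 arrays in both samples, at 8477 to 22029 for collagen and 4511 to 21362 for control.

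**Figure D2:**
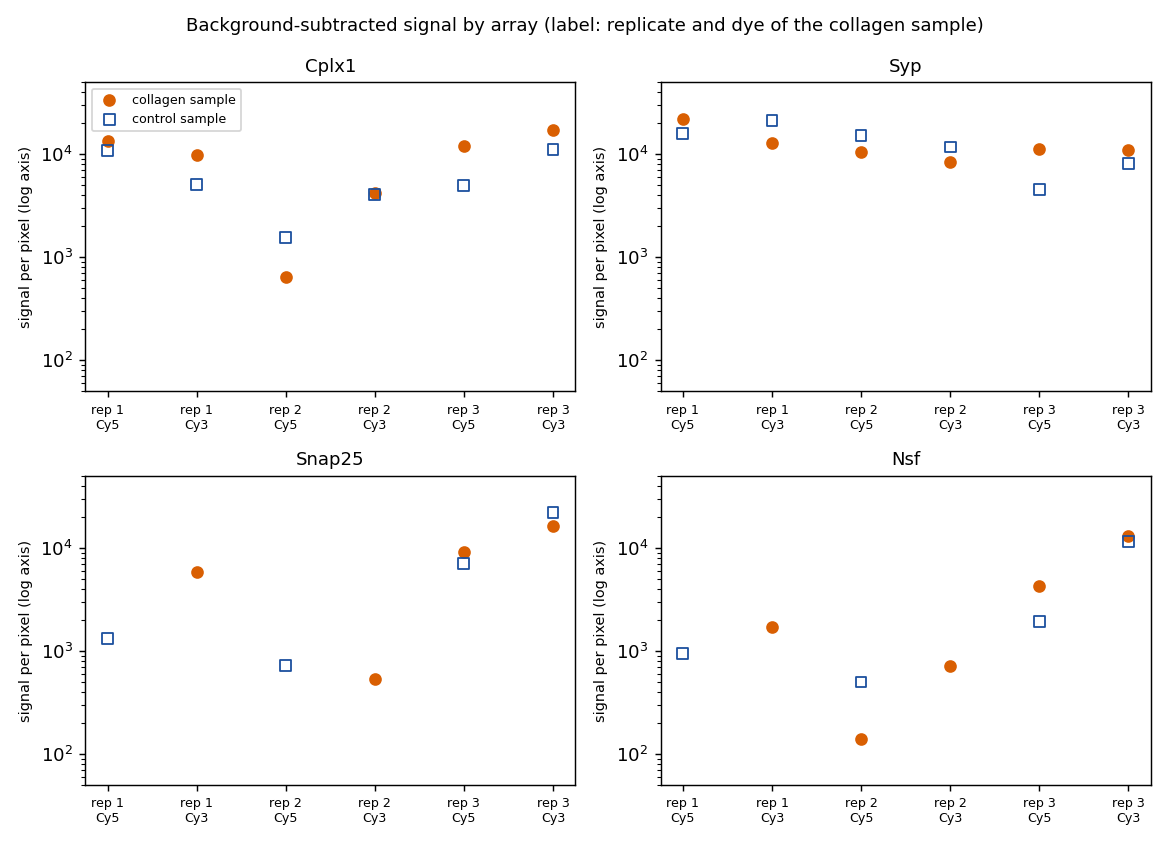
Background-subtracted signal per pixel (log axis) of Cplx1, Syp, Snap25 and Nsf on each array, in the collagen sample (filled circles) and the control sample (open squares), with no normalization between channels. The horizontal axis gives the replicate and the dye of the collagen sample. A missing symbol is a channel with no signal. Snap25 has both symbols in replicate 3 alone, where they lie between 7140 and 21997, and Nsf has both in replicate 3 and on 1 array of replicate 2.

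Comparing collagen with control asked whether genes of exocytosis differed in the hypothalamus of the mice that the submitters call arthritic. No member passed the test in either direction. With limma and Benjamini-Hochberg adjustment over all 2316 tested probes, 0 of 26 members and 0 of all probes (0%) had an adjusted p under 0.05. The smallest adjusted p was 0.872 for members and for all probes. At an unadjusted p under 0.05 there were 0 of 26 members and 25 of 2316 probes (1.08%). The 26 log2 ratios lay between -0.34 and 0.53 with a median of -0.11, where that of all tested probes was -0.09. A log2 ratio above 0 was found for 8 of 26 members (30.8%) against 33.7% of tested probes, so the members' split was close to that of the array. The error given after ± is limma's moderated SE, which borrows spread from the other probes and can be wider or narrower than the SE of the 3 replicate values alone. With it, the 95% interval of every tested member included 0. For 23 of the 26 it lay wholly within a 2-fold change in either direction. The 3 exceptions were Stx1a, Syt13 and Rab32, and the widest interval had a half-width of 0.87.

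The error of a single ratio was large beside these means. Over the members, the median SD between scans of an array was 0.09, the median half-difference between the 2 arrays of a replicate 0.27, and the median SD between replicates 0.24. The median absolute log2 ratio of the members was 0.19, below the last 2 of these. Those 2 describe single arrays and replicates, and the median moderated SE of the members' means was 0.17. Over all tested probes the median absolute log2 ratio was 0.15 and the median SD between replicates 0.30. The same sign in 3 replicates was found for 7 of 26 members (26.9%), against 23.6% of tested probes. Above 0 in all 3 were 2 members (7.34% of tested probes), and below 0 in all 3 were 5 (16.3%). With print-tip loess (smoothing within printing blocks) the same sign in 3 replicates was found for 6 members, against 22.1%. The same sign on 6 arrays was found for 0 members, against 0.777%. Across the 26 members, the log2 ratios of replicate 1 correlated with those of replicate 2 at 0.33 and with those of replicate 3 at -0.17. Replicates 2 and 3 correlated at -0.01. Over all 2316 tested probes the correlations were 0.16, -0.12 and -0.13, in the same order. These too run across probes and are descriptions.

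**Figure D3:**
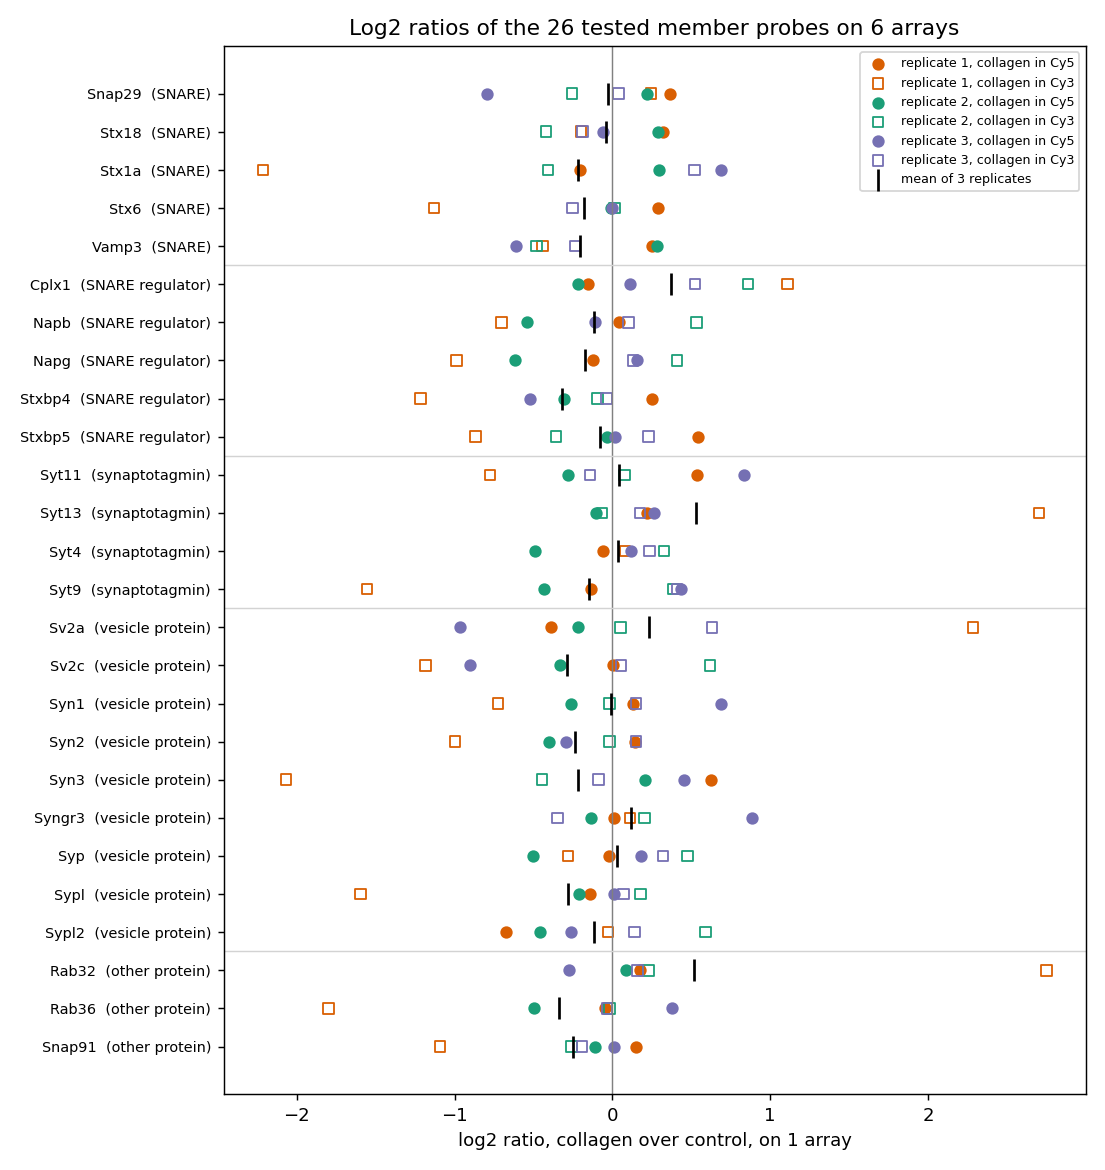
Log2 ratio of collagen over control (horizontal axis) on each of 6 arrays for the 26 tested members (rows, grouped by role), with the mean of 3 replicates as a black bar. Open orange squares, the Cy3 array of replicate 1, lie farthest from 0 in 18 of the 26 rows and span -2.21 to 2.75, while no row has all of its points on 1 side of 0.

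Among SNARE regulators, Cplx1 (Entrez Gene 12889) had the smallest unadjusted p of all members. Complexin 1 binds the assembled SNAREs, clamps them and promotes fast fusion on calcium entry. On the arrays with collagen in Cy3 its log2 ratios were 1.11, 0.86 and 0.52 in replicates 1, 2 and 3, and on those with collagen in Cy5 they were -0.16, -0.22 and 0.11. Every array with collagen in Cy3 thus read higher than every array with collagen in Cy5, and the orientations did not overlap. Averaged by replicate the values were 0.48, 0.32 and 0.32, with a mean of 0.37 ± 0.15 (moderated SE, n = 3), and the 95% interval ran from -0.0075 to 0.75. The SD of the 3 replicate values themselves was 0.09. In the limma fit the unadjusted p was 0.0533 and the adjusted p 0.872. The mean was 0.83 over the arrays with collagen in Cy3 and -0.09 over those with collagen in Cy5, so its sign turned with the dye. Without the Cy3 array of replicate 1 Cplx1 was at 0.16. Its signal per pixel was 634 to 17103 for collagen and 1561 to 11192 for control.

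Stxbp4, a syntaxin-binding protein known from the insulin-regulated traffic of a glucose transporter, was the lowest of the SNARE regulators. It read 0.25 and -1.22 on the arrays of replicate 1, -0.31 and -0.10 on those of replicate 2, and -0.52 and -0.04 on those of replicate 3, the array with collagen in Cy5 first. It lay below 0 on 5 of 6 arrays, with replicate means of -0.48, -0.20 and -0.28. The mean was -0.32 ± 0.16 (moderated SE, n = 3; limma adjusted p = 0.872), and without the Cy3 array of replicate 1 it was -0.08.

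Napb, the brain-enriched SNAP adaptor of NSF, was represented by a pair of probes that differed. The tested probe read 0.04 and -0.70 in replicate 1, -0.54 and 0.53 in replicate 2 and -0.11 and 0.10 in replicate 3. Its replicate means were -0.33, -0.0045 and -0.0048, so below 0 in all 3, but in replicates 2 and 3 only because opposite arrays nearly cancelled. The other Napb probe had a ratio on 4 arrays, at 0.47 in replicate 1, 0.61 in replicate 2, and 0.04 and 0.26 in replicate 3, all above 0. Napg, the gamma SNAP, was at -0.17 ± 0.19 (moderated SE, n = 3; limma adjusted p = 0.872), with replicate values of -0.55, -0.10 and 0.14. Stxbp5, or tomosyn, which competes for syntaxin and restrains release, was at -0.08, with -0.16, -0.20 and 0.12. Of the 5 tested SNARE regulators, 1 was above and 4 below 0, and 0 passed the test.

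The 5 tested SNAREs had log2 ratios of -0.22 to -0.03, and 0 passed the test. Each lay in the upper block rows, where the gene names carry a doubt. All 5 were below 0, on an array where 33.7% of tested probes were above it. Without the Cy3 array of replicate 1, 3 of them were above 0 (Stx1a at 0.12, Stx6 at 0.05 and Stx18 at 0.04), and with print-tip loess 3 were (Snap29 and Stx1a at 0.10 and Stx18 at 0.09). Most of them serve steps other than transmitter release. Vamp3, a SNARE of recycling endosomes, was below 0 in each replicate, at -0.10, -0.10 and -0.42 (mean -0.21 ± 0.16, moderated SE, n = 3; limma adjusted p = 0.872). On single arrays it read 0.25 and -0.44 in replicate 1, 0.28 and -0.48 in replicate 2, and -0.61 and -0.24 in replicate 3. It was thus above 0 on 2 arrays with collagen in Cy5 and below 0 on the other 4. Stx1a, the syntaxin of the presynaptic membrane, was at -0.22 ± 0.35, from replicate values of -1.21, -0.06 and 0.61. Its array values ran from -2.21 to 0.69. Stx6, of the trans-Golgi network, was at -0.18, with replicate values of -0.42, 0.0018 and -0.13. Stx18, of the endoplasmic reticulum, was at -0.04, and Snap29, a SNAP25 relative of intracellular fusion, at -0.03 with replicate values of 0.30, -0.02 and -0.38.

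Of the 4 tested synaptotagmins, 3 lay above 0, where 33.7% of all tested probes did, and 0 passed the test. Syt13, a family member that does not bind calcium, had the highest mean of all members, 0.53 ± 0.32 (moderated SE, n = 3; limma adjusted p = 0.872). It read 2.70 on the Cy3 array of replicate 1, and 0.22, -0.11, -0.06, 0.26 and 0.18 on the other arrays, the last 2 in replicate 3. A single array therefore carried the mean, which was 0.12 without that array and 0.07 without replicate 1. Syt4, which hypothalamic oxytocin neurons are known to use on their secretory granules, was at 0.04 ± 0.16 with replicate values of 0.01, -0.08 and 0.18. Syt11, another that does not bind calcium, was also at 0.04, with -0.12, -0.10 and 0.35. Syt9, a calcium sensor of fast release in some neurons, was at -0.15, with -0.85, -0.02 and 0.42.

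The calcium sensor Syt1 was not tested, because replicate 1 gave no ratio. It read 0.41 and 0.69 on the arrays of replicate 2 and 0.31 and 0.20 on those of replicate 3, above 0 on the 4 arrays that measured it. Syt5 had a ratio on 5 arrays, with replicate values of 0.27, 0.15 and 0.14, although 2 of the arrays, both with collagen in Cy3, read -0.06 and -0.23. Syt10 read 3.12 on the Cy3 array of replicate 1 and -0.40 to 0.37 on 4 others. Syt8 read 3.39 on that array, and 0.66 and -0.03 in replicate 3. On that array Stx11, a SNARE of immune cells, also read high, at 3.25, and 0.37 on the 1 other array that measured it. The other untested SNAREs had ratios on 1 to 5 arrays. Stx12, of endosomes, had ratios of -0.33 to 0.13 on 5 arrays, and Stx17, of autophagosome fusion, of -0.84 to 0.48 on 5. The Vamp5 probes read -0.55 to 0.60 on 5 arrays and -0.23 and 0.09 on 2, so both probes gave both signs. Stx3 had ratios on 3 arrays, Stx4a and Stx8 on 2, and Stx19 and Vamp7 on 1. Among SNARE regulators, the Munc18 relatives Stxbp2 and Stxbp3 had ratios on 3 arrays each, at -0.27 to 0.44 and -0.67 to -0.04. Of the synaptotagmin-like proteins, Sytl4 was measured on 4 arrays and Sytl1 and Sytl3 on 2, and Syt7 on 1.

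Vesicle proteins were the best measured role, with 9 of 11 probes tested, 3 above and 6 below 0, and 0 past the test. Synapsins tether vesicles to the cytoskeleton in the reserve pool. Syn2 was below 0 in each replicate, at -0.43, -0.21 and -0.07, with a mean of -0.24 ± 0.16 (moderated SE, n = 3; limma adjusted p = 0.872). On single arrays Syn2 read 0.14 and -0.997 in replicate 1, -0.40 and -0.02 in replicate 2 and -0.29 and 0.15 in replicate 3, so the arrays overlapped 0. Its mean was -0.05 without the Cy3 array of replicate 1. Syn1 was at -0.0056 ± 0.20 with replicate values of -0.30, -0.14 and 0.42. Syn3 was at -0.22, with values of -0.72, -0.12 and 0.18. The 95% interval of each synapsin included 0, and for Syn2 it ran from -0.64 to 0.16. Every synapsin probe lay in the upper block rows, where the gene names carry a doubt.

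Syp, the synaptophysin used as a marker of synaptic vesicles, was at 0.03 ± 0.17, and its replicates read -0.15, -0.01 and 0.25. Syngr3, a synaptogyrin, was above 0 in each replicate, at 0.06, 0.03 and 0.27, with an SD of 0.13 between them and a mean of 0.12 ± 0.16 (moderated SE, n = 3; limma adjusted p = 0.872). Its arrays read 0.0088 and 0.11 in replicate 1, -0.14 and 0.21 in replicate 2 and 0.88 and -0.35 in replicate 3. Sypl, a widely expressed relative of synaptophysin, read -1.60 on the Cy3 array of replicate 1 and -0.21 to 0.18 on the other 5, for a mean of -0.28, or -0.04 without that array. Sypl2 was at -0.12, and its second probe had ratios in replicate 3 alone, at -0.87 and 0.20.

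The SV2 proteins are transporter-like glycoproteins of the vesicle membrane, and 2 of them, Sv2a and Sv2c, were tested. Sv2a, the binding site of the antiepileptic drug levetiracetam, was at 0.23 ± 0.26 (moderated SE, n = 3; limma adjusted p = 0.872). It read -0.39 and 2.29 in replicate 1, -0.22 and 0.05 in replicate 2, and -0.97 and 0.63 in replicate 3. All arrays with collagen in Cy5 were below 0 and all with collagen in Cy3 above 0. Sv2c was at -0.29 ± 0.20, with arrays at 0.0069 and -1.19, -0.33 and 0.62, and -0.90 and 0.05 in replicates 1, 2 and 3. The 95% intervals of both included 0. The means were of opposite sign, but Sv2a was at -0.21 without the Cy3 array of replicate 1, at -0.24 with print-tip loess and at -0.13 without replicate 1. Sv2c was below 0 in each of these too, so the pair then had the same sign. Sv2a lay in block row 2 and Sv2c in block row 11.

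Rab3 and its effectors could not be tested, since 0 of 6 probes had a ratio on all arrays. Rab3a, the main Rab of synaptic vesicles, read 0.17 on 1 array of replicate 2, and 0.47 and -0.12 in replicate 3. Rab3b read -0.68 and -0.62, and Rab3c -0.40 and -0.15, in replicate 3 alone. Rab3d read 0.37 on 1 array of replicate 2, and 0.08 and 0.26 in replicate 3. Rph3al, a rabphilin relative that binds Rab27 and Rab3, read 5.14 on the Cy3 array of replicate 1 and -0.28 to 0.43 on 4 others. The Rab3 probes thus gave values of both signs from at most 3 arrays each. The untested Rab30, Rab31, Rab33a, Rab33b, Rab37 and Rab38 had ratios on 1 to 4 arrays, and Syngr1, a synaptogyrin, on 2.

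Of the 3 tested probes for other proteins, 1 was above 0 and 2 below, and 0 passed. Rab32, a Rab of lysosome-related organelles, was at 0.52 ± 0.32 (moderated SE, n = 3; limma adjusted p = 0.872), from 0.17 and 2.75 in replicate 1, 0.08 and 0.23 in replicate 2, and -0.28 and 0.16 in replicate 3. Without the Cy3 array of replicate 1 it was at 0.09, and with print-tip loess at -0.03. Rab36 was the lowest member at -0.34 ± 0.24, read -0.05 and -1.80, -0.49 and -0.02, and 0.38 and -0.03, and was at -0.04 without that array. Snap91, or AP180, which helps retrieve vesicles by endocytosis, was at -0.25 ± 0.16, below 0 in each replicate at -0.47, -0.18 and -0.09. Its arrays read 0.15 and -1.09, -0.11 and -0.26, and 0.01 and -0.19. Without the Cy3 array of replicate 1 Snap91 was at -0.04, and with print-tip loess at -0.0072.

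The 2 arrays of a replicate, which differ in dye orientation, often disagreed in sign. They had opposite signs for 15 of 26 members in replicate 1 (57.7%, against 59.3% of tested probes), for 18 in replicate 2 (69.2%, against 79%) and for 12 in replicate 3 (46.2%, against 58.5%). In all 3 replicates at once this was so for 5 members (19.2%), against 29% of tested probes. Members thus disagreed between orientations no more often than other probes, a difference that was not tested. The part of the ratio that followed the channel was larger than the part that followed collagen for 16 of 26 members (61.5%), against 60.6% of tested probes. Among the members the largest channel part was that of Sv2a, at -0.53 with collagen in Cy5 and 0.99 with collagen in Cy3. Next came Syn3 at 0.43 and -0.87, Rab32 at -0.0058 and 1.05, and Stx1a at 0.26 and -0.70.

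**Figure D4:**
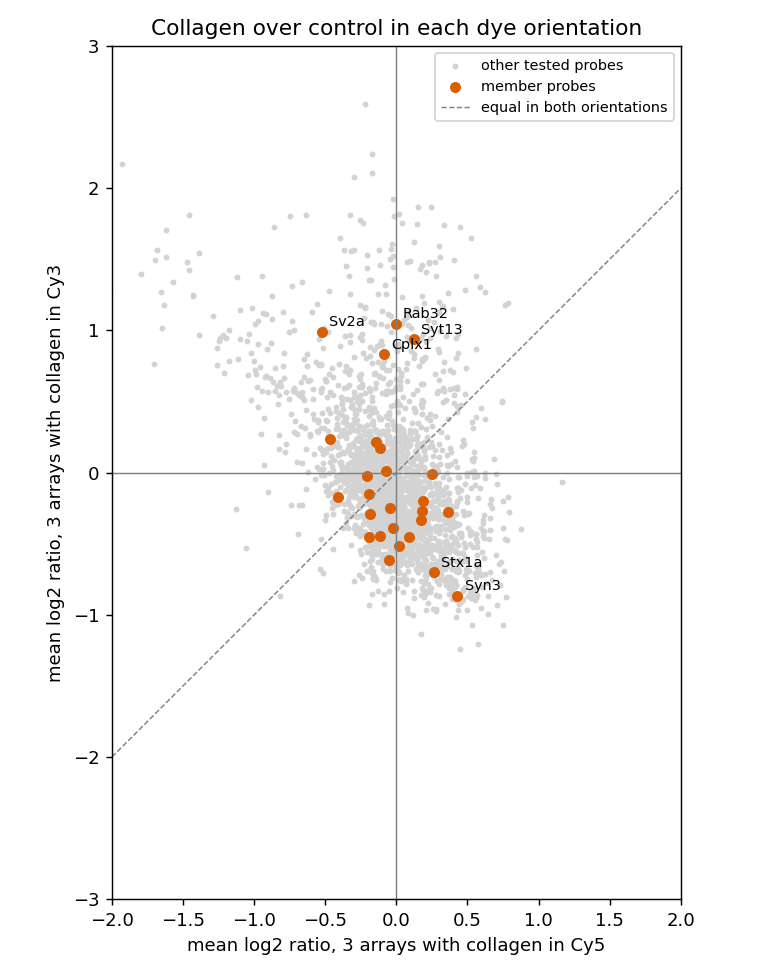
Mean log2 ratio of collagen over control on the 3 arrays with collagen in Cy5 (horizontal axis) against that on the 3 arrays with collagen in Cy3 (vertical axis), for the 26 tested members (orange) and the other tested probes (grey). Points on the dashed line would read the same in both orientations. Sv2a lies at -0.53 and 0.99, and Syn3 at 0.43 and -0.87, on opposite sides of 0 in the 2 orientations.

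The Cy3 array of replicate 1 weighed on the members' balance. It held the log2 ratio farthest from 0, in either direction, of the 6 arrays for 18 of 26 members (69.2%), against 62.4% of tested probes. The members' median on it was -0.75, against -0.42 over all tested probes, and on the other 5 arrays the members' median was -0.22 to 0.12. Without this array 15 of 26 members (57.7%) were above 0, against 52.3% of tested probes, compared with 8 when it was used. Their median was 0.03, while the median of all tested probes moved from -0.09 to 0.0077. Centred on the tested probes, 12 members were above and 14 below 0 (46.2% above), against 48.1% of tested probes, a share that this centring sets. In each case the members' split moved with that of the whole array. Of the highest members on the Cy3 array of replicate 1, Rph3al, Syt10, Stx11, Sv2a and Rab32 lay in the fourth block column, in the upper rows. Syt8 and Syt13 lay in the first. Also in the fourth column, Syngr3 read 0.11 on that array and Stxbp4 -1.22. Many other tested probes of the fourth column's upper rows had means above 0 with collagen in Cy3. Whether place on the slide shaped these values was not tested.

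**Figure D5:**
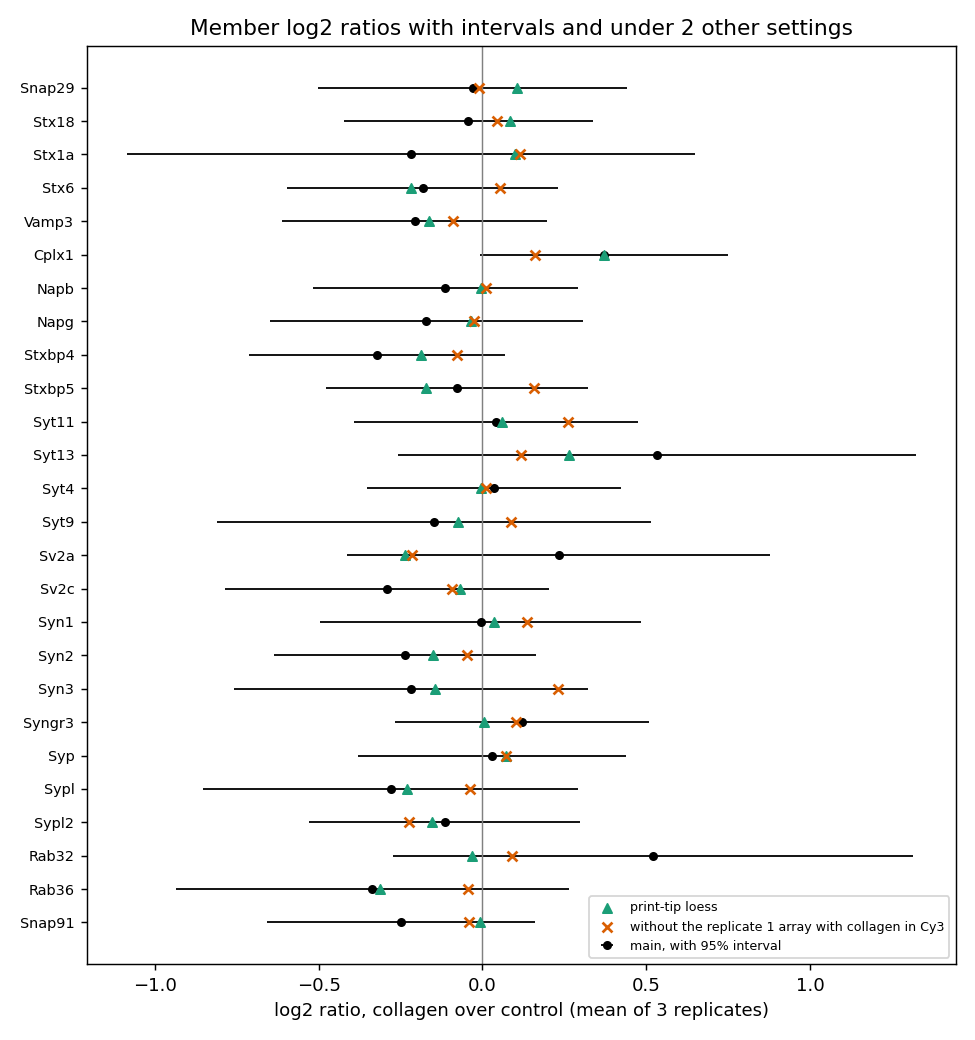
Log2 ratio of collagen over control (horizontal axis) for the 26 tested members, as the mean of 3 replicates with its 95% interval (black), with print-tip loess (green triangles) and without the Cy3 array of replicate 1 (orange crosses). Every interval includes 0. Syt13 moves from 0.53 to 0.12 and Rab32 from 0.52 to 0.09 without that array, and Sv2a from 0.23 to -0.21.

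Other genes of the vesicle cycle were read from a list of 89 genes, of which 45 had a probe and 13 were tested. None of the 13 passed in the limma fit, and 0 had an unadjusted p under 0.05. Of the 13, 6 lay above 0 and 7 below (46.2% above, against 33.7% of all tested probes), with a median of -0.02. Exoc7, a subunit of the exocyst tethering complex, was lowest at -0.38, with replicate values of -0.78, -0.03 and -0.34. Scg2, a granin of peptide-storing granules, was below 0 in each replicate at -0.34, -0.20 and -0.15. Synj2, a lipid phosphatase related to the synaptojanin of vesicle recycling, was highest at 0.32, from 1.37, -0.19 and -0.23. Dnm1, the dynamin that cuts vesicles from the membrane, was at 0.08, and Slc32a1, the vesicular transporter of GABA, at 0.01.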

How the data were processed

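Total RNA was labelled and hybridised to 2-colour arrays, per the labels' protocols. The deposited scanner files gave 3 scans per array, treated as repeats. Per the file headers, spot intensity was background-subtracted in channels A and B. It was summed over pixels and was 0 where a channel was rejected, as read from the values. Spot area and local background intensity were deposited too, as was a saturation factor, a fraction from 0 to 1. The authors' deposited table held 1 log ratio per probe and array, read from its values as natural log, with base, direction and processing unstated. Its column medians were -0.018 to 0.0015, and its values correlated with the loess ratios at 0.50 to 0.77 per array over all probes and at 0.25 to 0.81 over the members. Quantification software was not given in the sources used here.

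Rows were ordered by block and spot position to match the platform table, whose Entrez identifiers matched all 65 member probes to RefSeq (assembly GRCm38.p6), used for names only. Log2 ratios of B over A were smoothed by loess (span 0.3) in each scan, averaged over scans without saturated pixels where there were any, turned to collagen over control, and averaged per replicate. Probes had to have a ratio on all 6 arrays and exceed 1.5 times the local background on at least 4 arrays, which removed 0 more. Because the deposited intensities were already corrected, normexp with an offset of 50 was an alternative. In R 4.3.3, limma 3.58.1 fitted each probe's mean over the 3 replicates and gave a two-sided moderated test of 0 (lmFit, eBayes), with Benjamini-Hochberg adjustment over all 2316 tested probes and a threshold of 0.05. Samples were not paired further, since the arrays of a replicate were averaged. Precision is limited by having 6 arrays. The code was tested on simulated data. Figures used matplotlib 3.10.9.

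Members, roles and the list of other vesicle genes were chosen with earlier results of these data known. By the rule for named genes, array values are given for the 7 tested members with the same sign in 3 replicates and the 6 others with the largest absolute log2 ratio. Array values of untested members, and signals per pixel, were added after the values were seen.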

Additional observations from a re-analysis of the deposited data

Results flagged for a closer look

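In 4 of the 26 tested members a single array stood away from the remaining 5 by a gap beyond the 95% critical value of Dixon's test. Syt13 read 2.70 there and -0.11 to 0.26 elsewhere, Rab32 2.75 and -0.28 to 0.23, Sypl -1.60 and -0.21 to 0.18, and Snap91 -1.09 and -0.26 to 0.15. The array was in each case the Cy3 array of replicate 1. Dixon's value is passed by chance in about 1 in 20 groups, if the values share a spread, which these arrays did not. Among all 2316 tested probes the gap was passed by 23.0%, and among the members by 15.4%.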

How the results depend on the processing

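Across 16 alternatives, of which block rows 8 to 12 alone was chosen after seeing the data, 0 members and 0 genes of the list of other vesicle genes passed the adjusted threshold under any of them. The number of probes past it was 0 to 30 when 1 replicate was left out (30 without replicate 3) and 34 with collagen in Cy5 only, none of them a member. An unadjusted limma p under 0.05 was reached by 1 member with print-tip loess, 1 centred on the tested probes and 1 with collagen in Cy3 only. All probes reaching it there numbered 30, 22 and 58 of 2316. Without replicates 1, 2 and 3 it was 1, 1 and 2 members, against 53, 69 and 165 probes. With collagen in Cy5 only it was 3 members and 365 probes. In block rows 8 to 12 alone it was 1 member and 12 of 1177 probes. The other alternatives gave 0 members. The count of members above 0 was 8 of 26 (30.8%), against 33.7% of tested probes. It was 14, 9 and 6 without replicates 1, 2 and 3, against 46.7%, 31.8% and 36.2% of tested probes. Without the Cy3 array of replicate 1 it was 15, against 52.3%. Without the fourth block column it was 4 of 19 (21.1%, against 24.0%). In the authors' deposited table it was 4 of 16 (25%, against 42.0%), and in block rows 8 to 12 alone 3 of 10 (30%, against 21.7%). These differences were not tested. The replicate block (the replicate as a random block over 6 arrays) gave 0 probes past the threshold with a smallest adjusted p of 0.831, and changed no other call. With this block 8 members remained above 0 and the median was -0.11, since it left the log2 ratios as they were. Its fitted correlation between the arrays of a replicate was -0.29. A shared replicate effect would give a value above 0, so this fit is a weak check.

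The sign of single members changed as follows, and the cause was not tested. With median centring Syt4 was at -0.11, Syt9 at 0.011, Syn1 at 0.076 and Syp at -0.065. With print-tip loess Snap29 was at 0.10, Stx18 at 0.086, Stx1a at 0.10, Syt4 at -0.0040, Sv2a at -0.24, Syn1 at 0.035 and Rab32 at -0.031. Centred on the tested probes, Snap29 was at 0.049, Stx18 at 0.036, Stxbp5 at 0.00031 and Syn1 at 0.073. With normexp Stx18 was at 0.024 and Syn1 at 0.096. With the first scan alone Stx18 was at 0.14. With collagen in Cy5 only Stx18 was at 0.18, Stx1a at 0.26, Stx6 at 0.091, Cplx1 at -0.089, Stxbp5 at 0.18, Syt4 at -0.14, Sv2a at -0.53, Syn1 at 0.19, Syn3 at 0.43, Syp at -0.11, Rab32 at -0.0058 and Snap91 at 0.018. With collagen in Cy3 only Snap29 was at 0.011, Syt11 at -0.28, Syngr3 at -0.0097 and Sypl2 at 0.23. Without the Cy3 array of replicate 1, Stx18 was at 0.044, Stx1a at 0.12, Stx6 at 0.053, Napb at 0.011, Stxbp5 at 0.16, Syt9 at 0.088, Sv2a at -0.21, Syn1 at 0.14 and Syn3 at 0.23. In the authors' deposited table Stx6 was at 0.037, Syt11 at -0.0084 and Syn3 at 0.0074. Leaving out 1 replicate gave -0.33 to 0.020 for Napg, -0.20 to 0.14 for Snap29, -0.63 to 0.28 for Stx1a, -0.13 to 0.43 for Sv2a, -0.22 to 0.14 for Syn1 and -0.42 to 0.032 for Syn3. It gave -0.083 to 0.12 for Syp, -0.44 to 0.013 for Sypl, -0.21 to 0.0024 for Sypl2, -0.11 to 0.12 for Syt11, -0.035 to 0.094 for Syt4 and -0.43 to 0.20 for Syt9. The sign held in every alternative that measured them for 6 members, Vamp3, Stxbp4, Syt13, Sv2c, Syn2 and Rab36. Some alternatives left the log2 ratio of a tested member as it was, so no sign could change there. These were the replicate block, the need for a ratio on only 1 array of each replicate, leaving out the fourth block column, and block rows 8 to 12 alone.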
